A study of Mus musculus with 48 samples.

Results

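The 9 genes described here belong to coagulation and fibrinolysis. They are F13a1, F3, F7, F10, Plau, Plaur, Serpinb2, Thbs1 and Pros1, taken by symbol from a table of 51789 gene IDs counted in RNA of mouse macrophages. F13a1 was chosen by its measured values, as the deepest fall in thioglycollate-elicited macrophages after a compound known by the code AP-3-84. That fall is a description with no test, and so are the other F13a1 contrasts that use those thioglycollate libraries.

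In blood coagulation, tissue factor (F3) on a cell surface binds factor VII (F7), the pair activates factor X (F10), and active factor X turns prothrombin into thrombin, which makes fibrin. Factor XIII (F13a1 encodes its catalytic A subunit) crosslinks fibrin, and protein S (Pros1) restrains the cascade as a cofactor of activated protein C. Fibrin is dissolved by plasmin, which urokinase (Plau) makes from plasminogen at its receptor (Plaur), and plasminogen activator inhibitors such as Serpinb2 oppose this step. Thrombospondin 1 (Thbs1) is a matrix glycoprotein of platelets and macrophages. Macrophages are a known source of factor XIII A, urokinase and its receptor outside the liver.

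The study asked how AP-3-84 changes gene expression in several kinds of macrophage. Cells were kept with 10 µM AP-3-84 or the same amount of its solvent DMSO (vehicle) for 4 h, and each of 16 groups had 3 libraries. The labels do not say whether these came from separate animals or cultures, so p-values measure the spread between these libraries, which may be technical. Peritoneal macrophages were F4/80+ cells taken with magnetic beads. The ascites group came from mice carrying ID8 ovarian tumour cells for 45 days, strain C57BL/6 with the genotype given as B6(Cg)-Tyrc-2J/J, and the thioglycollate (thio) group from wild-type C57BL/6 mice 4 days after 1 ml of 3% thioglycollate. Tumour, host genotype and time therefore cannot be told apart between these groups. Bone marrow-derived macrophages of C57BL/6 mice, p53 wild-type (WT) or p53 knockout (KO), grew for 6 days in 10 ng/mL M-CSF (M0). Some then had a further 24 h with LPS (100 ng/mL) and IFN-γ (50 ng/mL) for the M1 state, or with IL-4 and IL-13 (10 ng/mL each) for the M2 state. M1 and M2 cells are thus also older in culture than the labels state for M0 cells. Ages and sexes of the mice are not used here, and the genotype field calls every bone marrow library wild-type, while titles and the design separate WT from KO.

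The targeted gene Trp53 was lower in KO M0 libraries (4.34 ± 1.87 against 11.1 ± 2.04 CPM, counts scaled to a common library size, SD, n = 3) but still counted, and in M1 and M2 cells the difference was not called (log2 -0.22 and -0.63, edgeR adjusted p 0.765 and 0.407). A tag at the 3′ end does not show whether a deletion upstream is present. The p53 target Cdkn1a was lower in KO in all 3 states (log2 fold change -4.58 in M0, -1.54 in M1 and -3.21 in M2), while Mdm2, another target, was lower in M0 and M2 (-1.89 and -2.01) and not in M1 (0.14, adjusted p 0.779). The targets Ccng1, Phlda3 and Zmat3 were called lower in KO in all 3 states (log2 -1.67, -8.29 and -1.22 in M1). Total counts ran from 3081707 to 4645148 in the 36 bone marrow libraries and from 15532373 to 19417581 in the 12 peritoneal ones, so 1 count is worth 0.215 to 0.324 CPM and 0.0515 to 0.0644 CPM. The macrophage markers (6 of 6 counted in each peritoneal group) summed to 23525 to 34478 CPM in peritoneal libraries and to 5859 to 48677 CPM in bone marrow libraries, lowest in the third KO M2 vehicle library. The first WT M2 vehicle library stood apart, with neutrophil markers at 3953 CPM against 577 and 450 CPM and platelet markers at 112 CPM against 9.95 and 8.23 CPM. Neutrophil markers also spread widely elsewhere, at 343 to 3284 CPM in KO M2 vehicle libraries. They ran from 985 to 2500 CPM in KO M1 vehicle libraries and from 726 to 3647 CPM in those with AP-3-84. Their part in comparisons with these groups was not tested. The 3 KO M0 libraries with AP-3-84 differed among themselves, with macrophage markers at 38730, 17881 and 28919 CPM and the lowest rank correlation of replicates (Spearman rho 0.88 across 10231 genes). Of 9 platelet markers, 5 to 6 had counts in each peritoneal group, with sums from 4.58 to 10.0 CPM.

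Polarization to M2 raised F7 and F10 and lowered F13a1 in both genotypes. In WT cells, 2 of the 8 genes that could be tested were called between M1 and M0 (edgeR, Benjamini-Hochberg adjusted p under 0.05), both higher (F10 and Serpinb2), while 15.5% of all genes tested were called. Between M2 and M0, 4 were called, F7, F10 and Serpinb2 higher and F13a1 lower, beside 23.4% of all genes. In KO cells, 6 were called between M1 and M0, with F7, F10, Plaur and Serpinb2 higher and F13a1 and Pros1 lower, beside 44.5%. Between M2 and M0 in KO cells 5 were called, with F7, F10 and Plaur higher and F13a1 and Thbs1 lower, beside 38%. Thus F7, F10 and F13a1 were called the same way in M2 cells of both genotypes, and Serpinb2 and F10 in M1 cells of both. The M1 and M2 comparisons of a genotype share their M0 libraries.

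Between genotypes, 3 of 8 genes were called in M0 cells, F13a1 and Thbs1 higher and Plau lower in KO, beside 33.2% of all genes. In M1 cells 2 were called, F7 and F10, both higher in KO, beside 11.6%. In M2 cells edgeR called 0, beside 3.56% of all genes; 3 of the 8 had an unadjusted p under 0.05, and DESeq2 called 2. The M1 response differed between genotypes for 1 gene (F13a1; 20.7% of all genes) and the M2 response for 1 (F13a1 again; 27.1% of all genes).

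Few of the genes were called after AP-3-84. In thio macrophages Plaur was called higher, 1 of the 8 genes other than F13a1, beside 4.32% of all genes, and since the choice used this contrast nothing is read from that count. In WT M2 cells 2 of 8 were called, F10 and Serpinb2, both lower, beside 1.21%. In KO M0 cells F13a1 alone was called, lower, beside 20.7%. The edgeR test called 0 of 9 in ascites macrophages (1.79% of all genes), 0 of 8 in WT M0 (0.144%), 0 of 8 in WT M1 (0.017%), 0 of 8 in KO M1 (0%) and 0 of 8 in KO M2 cells (0.0509%). In those 5 populations 4, 2, 1, 0 and 1 genes had an unadjusted p under 0.05, and DESeq2 called 0 in each. The response to AP-3-84 differed between KO and WT for F13a1 and Thbs1 in M0 cells (2 of 8, beside 17% of all genes) and for F10 in M2 cells (1 of 8, beside 1.77%). It differed for 0 of 8 in M1 cells (0.00849% of all genes, 1 member under an unadjusted p of 0.05) and, between ascites and thio, for 0 of the 8 genes other than F13a1 (0.118%, 1 under an unadjusted p of 0.05).

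Between the vehicle groups of the peritoneum, edgeR called 6 of the 8 genes other than F13a1, beside 33.7% of all genes. F3, Plau and Serpinb2 were higher in ascites macrophages, and F7, Thbs1 and Pros1 were higher in thio macrophages.

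**Figure D1:**
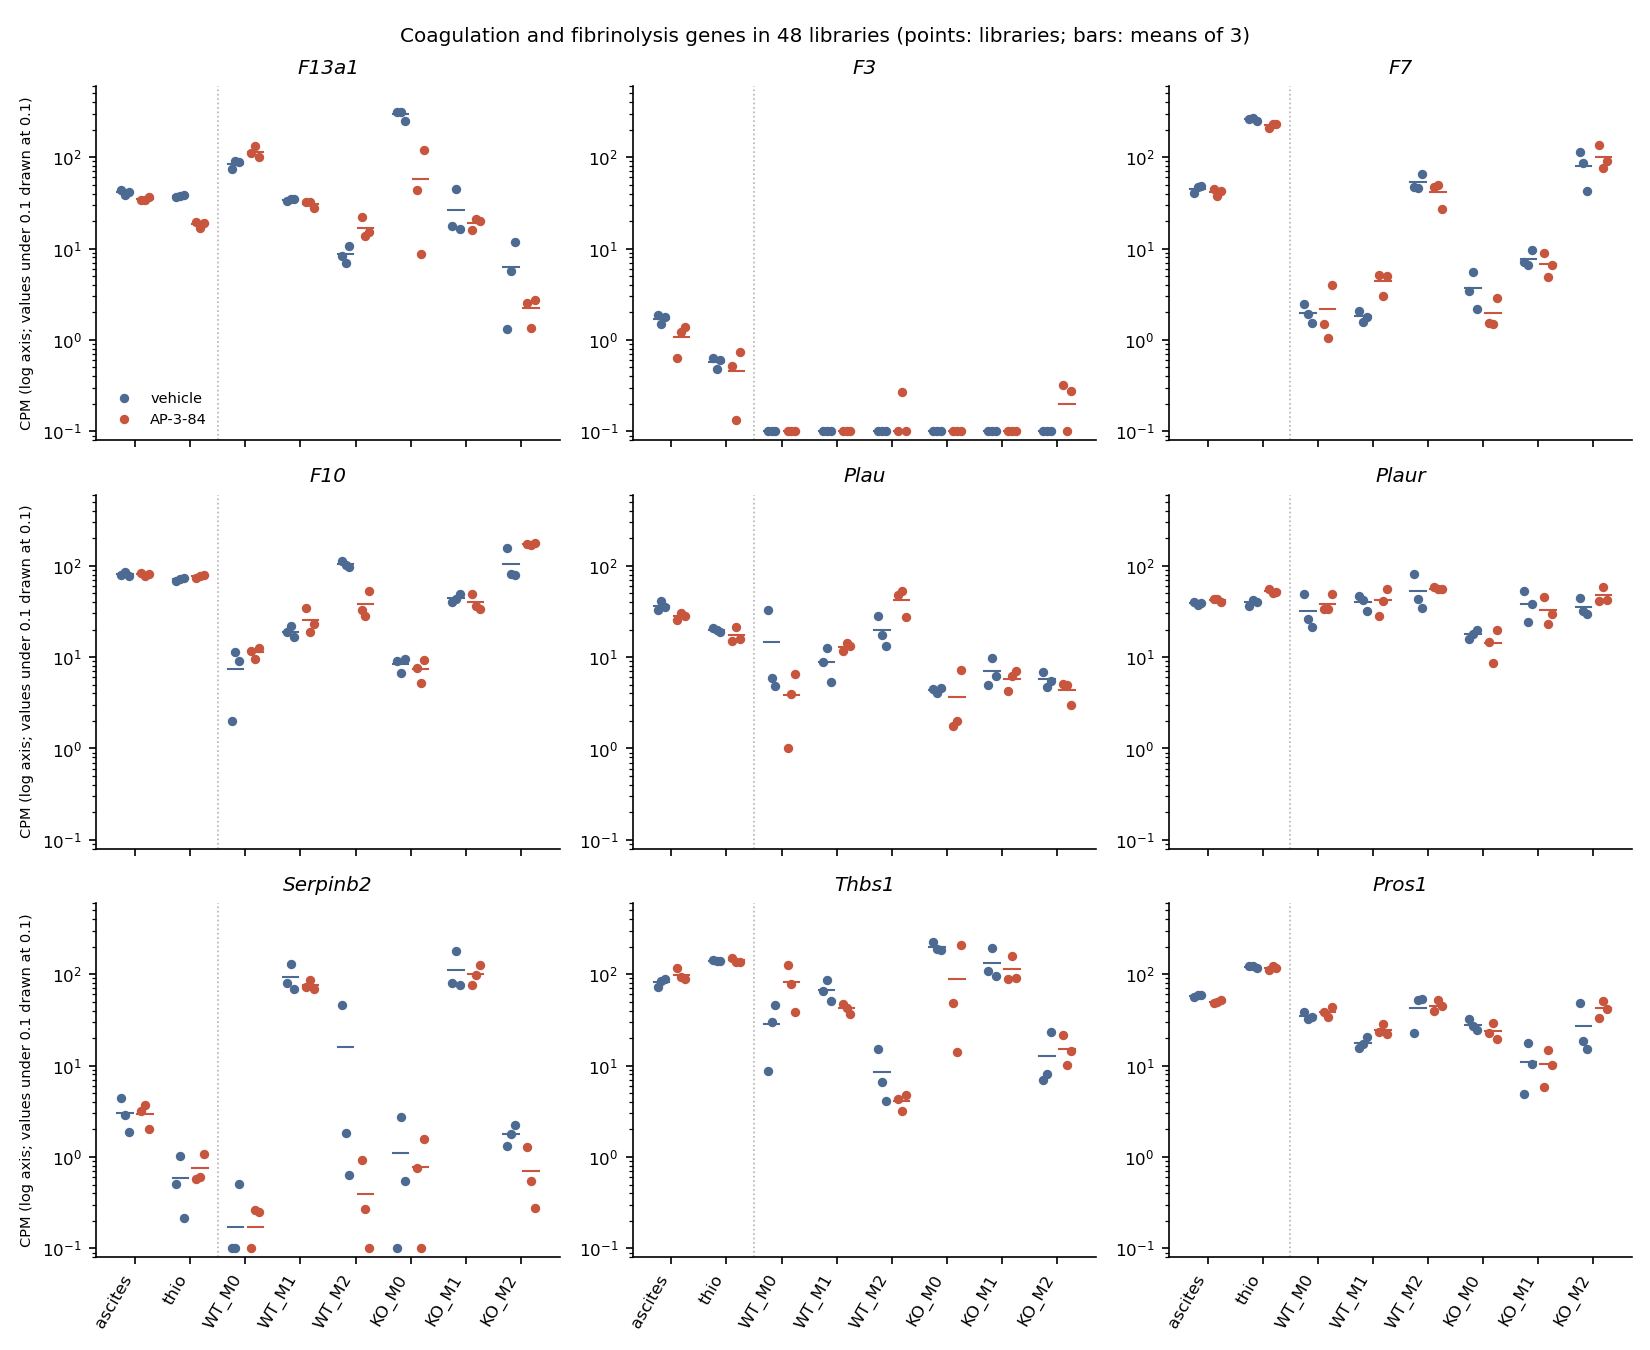
Level of each gene in CPM (log axis; values under 0.1 are drawn at 0.1) in the 48 libraries, with vehicle in blue and AP-3-84 in red; bars are means of 3 libraries, and the dotted line separates peritoneal from bone marrow-derived groups, which were scaled apart. Among bone marrow groups F7 stands highest in M2 cells, Serpinb2 in M1 cells and F13a1 in KO M0 vehicle cells. F10 also stands highest in M2 cells, except in WT M2 cells with AP-3-84, whose mean (37.7 CPM) lies under those of KO M1 cells.

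Of the initiators, F3 (ENSMUSG00000028128) was nearly silent. This receptor had 3 counts in all over the 36 bone marrow libraries, at most 1 in any library, too few to test. In ascites vehicle libraries it stood at 1.86, 1.48 and 1.79 CPM and in thio vehicle libraries at 0.638, 0.486 and 0.597 CPM. The groups did not overlap, and F3 was higher in ascites macrophages (log2 fold change 1.56, SE 0.56, edgeR adjusted p 0.0392). The call was lost when any 1 of the 6 libraries was left out (adjusted p 0.067 to 0.116). Epithelial, mesothelial and tumour markers (8 genes) summed to 211 to 249 CPM in these ascites libraries against 2.98 to 4.98 CPM in thio, where Epcam and Msln were at 0, and their part in the F3 difference was not tested. With AP-3-84 F3 stood at 0.629, 1.22 and 1.40 CPM in ascites and at 0.517, 0.134 and 0.736 CPM in thio macrophages.

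F7 (ENSMUSG00000031443), which encodes the protease that tissue factor binds, rose in M2 cells of both genotypes. WT M0 vehicle libraries held 2.47, 1.91 and 1.53 CPM, and WT M2 vehicle libraries 46.7, 45.8 and 65.9 CPM. In KO cells the M0 libraries held 3.41, 5.54 and 2.16 CPM and the M2 libraries 113, 85.4 and 42.9 CPM. Neither pair of groups overlapped, and F7 was 26.2-fold higher in WT M2 cells (log2 4.71, SE 0.41, edgeR adjusted p 4.64e-10) and 21.9-fold higher in KO M2 cells (log2 4.45, SE 0.38, edgeR adjusted p 2.86e-10). The rise did not differ detectably between genotypes (log2 difference -0.26, 95% interval -1.37 to 0.85). The monocyte markers (6 of 6 counted) summed to 57.8 to 88.8 CPM in WT M0 against 2448 to 6363 CPM in WT M2 libraries, and to 115 to 150 against 1543 to 4581 CPM in KO. Chil3, also known as a gene of M2 macrophages, made up most of that sum, with means of 24.6 and 3808 CPM in WT and 29.2 and 2412 CPM in KO, while Ly6c2 had means of 19.2 and 23.7 CPM in WT and 16.9 and 40.8 CPM in KO. The part of these markers in the M2 changes of F7, F10 and F13a1 was not tested.

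M1 cells set the genotypes apart for F7. WT M1 vehicle libraries stood at 2.09, 1.59 and 1.76 CPM (within the WT M0 range), and KO M1 vehicle libraries at 7.14, 6.58 and 9.60 CPM. KO M1 was above WT M1 in every library (log2 2.09, SE 0.47, edgeR adjusted p 0.00365). KO M1 was also above KO M0 (log2 1.09, edgeR adjusted p 0.0329), a call that ended without the first or the third KO M0 library or the third KO M1 library (adjusted p 0.0832, 0.151 and 0.128). Neutrophil markers (7 of 7 counted) summed to 985 to 2500 CPM in KO M1 against 440 to 566 CPM in WT M1 vehicle libraries, and their part was not tested. Among the 12 bone marrow group means of F7, the 4 M2 groups came first and the lowest, WT M1 vehicle, stood at 1.81 CPM; 10 of the 11 neighbouring pairs in that order overlapped, the exception being the step from M2 to the rest.

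In the peritoneum F7 had the largest log2 difference of the 9 genes between vehicle groups in the fit reported here. Serpinb2 came close (log2 2.38), and across the alternatives it ran from 1.97 to 3.07 while F7 ran from -2.56 to -2.42. Ascites vehicle libraries held 40.4, 47.4 and 48.1 CPM and thio vehicle libraries 259, 269 and 249 CPM. F7 was 5.72-fold lower in ascites (log2 -2.51, SE 0.08, edgeR adjusted p 2.37e-13). After AP-3-84 the thio libraries held 210, 228 and 233 CPM, each under the lowest vehicle library, but the difference was not called (log2 -0.21, edgeR adjusted p 0.173).

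F10 (ENSMUSG00000031444), the next protease in the cascade, followed F7 into M2 cells and also rose in M1 cells. WT libraries held 2.02, 11.2 and 8.95 CPM in M0, 18.8, 21.7 and 16.6 CPM in M1 and 112, 102 and 96.3 CPM in M2. KO libraries held 9.17, 6.77 and 9.47 CPM in M0, 39.6, 43.5 and 48.7 CPM in M1 and 156, 80.4 and 78.6 CPM in M2. No 2 states of a genotype overlapped. Against M0, F10 was 14.1-fold higher in WT M2 (log2 3.81, SE 0.35, edgeR adjusted p 1.99e-09) and 12.3-fold higher in KO M2 cells (log2 3.62, SE 0.35, edgeR adjusted p 3.49e-09). In M1 cells it was 2.59-fold higher in WT (log2 1.37, SE 0.35, edgeR adjusted p 0.00784) and 5.15-fold higher in KO (log2 2.36, SE 0.34, edgeR adjusted p 2.62e-06). The WT call in M1 was lost in a fit of the compared groups alone (adjusted p 0.0651). KO M1 cells held more than WT M1 cells (log2 1.21, edgeR adjusted p 0.0128), a call that ended without the first or the third WT M1 library or the third KO M1 library (adjusted p 0.0509, 0.0626 and 0.0588).

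After AP-3-84, F10 fell in WT M2 cells. The treated libraries held 32.7, 27.9 and 52.5 CPM, all under the lowest vehicle library (96.3 CPM). The fold was 2.74 downward (log2 -1.46, SE 0.30, edgeR adjusted p 0.00882). Without the first or the second treated library the log2 change was -1.36 and -1.28 and the adjusted p 0.0912 and 0.105. In KO M2 cells the treated libraries held 173, 169 and 178 CPM, all above the vehicle libraries, and that rise was not called (log2 0.73, edgeR adjusted p 0.283). The responses of the genotypes differed (log2 difference 2.18, SE 0.42, edgeR adjusted p 0.00547), and this held in all 19 alternatives tried. F7 did not show such a difference (log2 0.68, 95% interval -0.15 to 1.51). The first WT M2 vehicle library, rich in neutrophil markers, is in this contrast, and its F10 level (112 CPM) lay close to the other 2. Monocyte markers summed to 2448 to 6363 CPM in its vehicle and 1518 to 1712 CPM in its treated libraries, again mostly Chil3 (means 3808 and 1496 CPM), and their part was not tested. In the peritoneum F10 stayed between 68.3 and 85.1 CPM in all 12 libraries.

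F7 and F10 are neighbours on the plus strand of chromosome 8. In GENCODE M21 (GRCm38) F7 spans 13026034 to 13035809 and F10 13037308 to 13056676, with 1498 bp between them. Over the 16 group means their log2 levels gave Pearson's r of 0.86, a description over groups that share libraries of 2 separate scalings. The genes around them were looked up after these values were seen. Mcf2l, the gene before F7, had 2 counts over the WT M0 vehicle libraries and 295 over the WT M2 ones (edgeR adjusted p 1.1e-08), and in KO cells rose from 2.88 ± 1.70 to 27.4 ± 8.26 CPM (SD, n = 3; log2 3.21, edgeR adjusted p 9.57e-06). Proz, the gene after F10, encodes protein Z of the clotting system and had no count in any vehicle group. Pcid2, read from the other strand, was 0.84 and 0.91 higher on the log2 scale in WT and KO M2 cells (edgeR adjusted p 0.00764 and 0.00284). For Cul4a beyond it the log2 differences were 0.28 and 0.42 (edgeR adjusted p 0.355 and 0.114). Atp11a, the gene before Mcf2l, had means of 13.3, 21.8 and 19.8 CPM in WT M0, M1 and M2 vehicle libraries. In KO vehicle libraries its means were 13.9, 19.9 and 15.6 CPM in the same order. Mcf2l, F7 and F10 all rose in M2 cells of both genotypes, while in M1 cells Mcf2l was not called (log2 2.27 in WT and -1.42 in KO, edgeR adjusted p 0.188 and 0.0856).

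**Figure D2:**
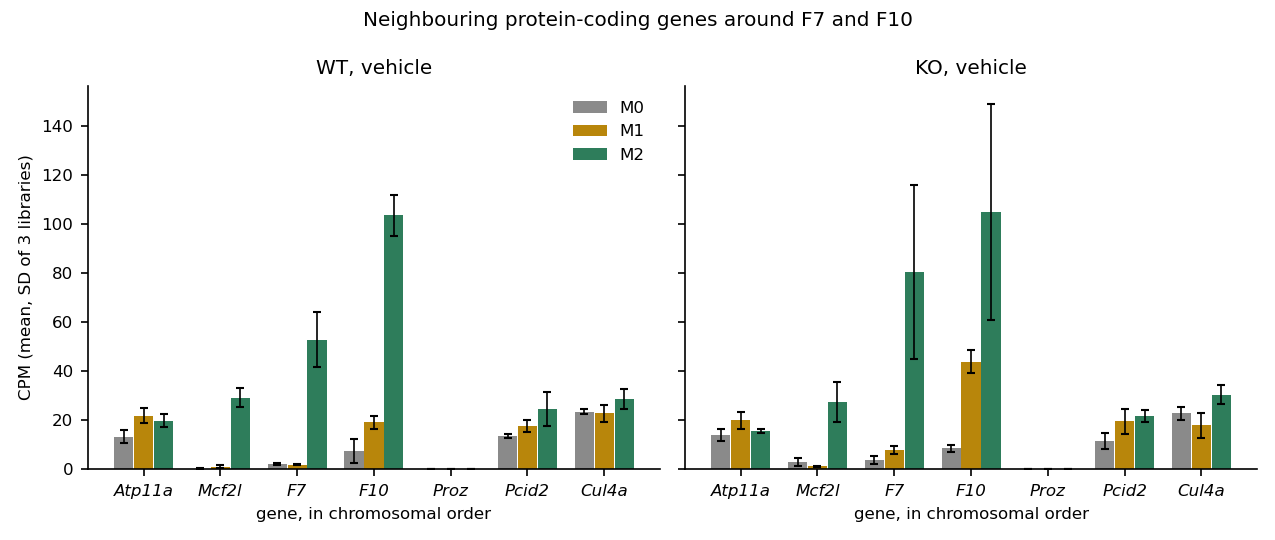
Mean level in CPM (bars; lines are the SD of 3 libraries) of 7 neighbouring protein-coding genes in chromosomal order, in vehicle libraries of WT and KO cells. The M2 bars of Mcf2l, F7 and F10 rise far above M0, and Proz has no bar because it had no count.

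Because F7 and F10 rose together in M2 cells, and Serpinb2 and Plaur were both called higher in KO M1 cells, their promoters were searched for 9 short motifs on both strands. RefSeq promoters (GRCm38.p6, the 250 bases before the start) were given for 7 of the 9 genes, all but Plau and Thbs1. The motifs were AP-1 (TGANTCA), CRE (TGACGTCA), GAS (TTCNNNGAA), heat shock (GAANNTTC), ARE (TGACNNNGC), PU.1 (GAGGAAGT), and the longer NF-kB, STAT6 and ISRE patterns. Capitals mark a match; where matches of 1 motif overlap they run together. Intervals are chr8:13025784-13026033 for F7, chr8:13037058-13037307 for F10, chr1:107511173-107511422 for Serpinb2 and chr7:24462233-24462482 for Plaur, all on the plus strand.
F7: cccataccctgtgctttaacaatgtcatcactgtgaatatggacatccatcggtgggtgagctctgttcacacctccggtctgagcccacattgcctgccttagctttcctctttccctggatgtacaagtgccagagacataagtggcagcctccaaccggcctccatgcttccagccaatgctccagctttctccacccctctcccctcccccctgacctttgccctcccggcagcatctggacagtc
F10: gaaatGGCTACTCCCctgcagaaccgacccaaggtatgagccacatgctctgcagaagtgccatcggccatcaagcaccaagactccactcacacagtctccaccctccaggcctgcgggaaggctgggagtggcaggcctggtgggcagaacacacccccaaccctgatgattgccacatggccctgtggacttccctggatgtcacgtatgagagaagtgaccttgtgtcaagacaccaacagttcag
Serpinb2: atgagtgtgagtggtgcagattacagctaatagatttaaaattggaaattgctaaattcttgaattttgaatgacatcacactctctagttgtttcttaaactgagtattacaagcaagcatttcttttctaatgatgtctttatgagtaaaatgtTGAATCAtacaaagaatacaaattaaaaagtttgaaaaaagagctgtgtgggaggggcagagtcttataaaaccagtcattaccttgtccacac
Plaur: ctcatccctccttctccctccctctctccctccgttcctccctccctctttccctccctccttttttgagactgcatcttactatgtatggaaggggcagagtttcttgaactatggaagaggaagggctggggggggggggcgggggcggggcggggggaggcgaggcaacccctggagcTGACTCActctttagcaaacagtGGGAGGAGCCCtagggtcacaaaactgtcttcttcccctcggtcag
The F7 promoter and both F13a1 promoters held none of the 9 motifs, and F10 held only an NF-kB pattern, which 45.8% of 32851 promoters of this length hold. An AP-1 match lay in F3 (2 matches), Plaur and Serpinb2, against 6.75% of all promoters. The Serpinb2 match began 94 bases before the start and the Plaur match 69 bases before it. Of these genes, Pros1 held a STAT6 match (5.85% of all promoters), and Pros1 and the second Serpinb2 promoter a GAS match (7.02%). These are matches of letters in a window and not binding sites.

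F13a1 (ENSMUSG00000039109), the fibrin-crosslinking enzyme, ran opposite to F7 and F10 between M0 and M2 cells. WT vehicle libraries held 73.6, 91.0 and 87.9 CPM in M0, 33.1, 34.4 and 35.0 CPM in M1 and 8.35, 6.94 and 10.8 CPM in M2. KO vehicle libraries held 315, 316 and 252 CPM in M0, 17.6, 45.1 and 16.5 CPM in M1 and 1.33, 5.63 and 11.9 CPM in M2. In each genotype every M0 library lay above every M1 library, and every M1 library above every M2 library. The fall from M0 to M2 was 9.68-fold in WT (log2 -3.28, SE 0.58, edgeR adjusted p 0.000176) and 46.2-fold in KO (log2 -5.53, SE 0.62, edgeR adjusted p 2.11e-07). Macrophage markers summed to 31994 to 38613 CPM in KO M0 against 5859 to 18317 CPM in KO M2 libraries, and their part was not tested. From M0 to M1 the fall of F13a1 was called in KO (log2 -3.48, SE 0.54, edgeR adjusted p 1.3e-05) and not in WT (log2 -1.30, SE 0.51, edgeR adjusted p 0.0865). In WT 4 alternatives called it: scaling by total counts, no filter, all 48 libraries in 1 fit and only the compared groups.

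KO M0 vehicle cells held 3.49 times as much F13a1 as WT M0 cells (log2 1.80, SE 0.50, edgeR adjusted p 0.00676), with no overlap. In M1 and M2 cells the genotypes overlapped (log2 -0.38 and -0.45, edgeR adjusted p 0.696 and 0.765). The steps from M0 to M1 and from M0 to M2 were more negative in KO, by -2.18 (SE 0.72, edgeR adjusted p 0.0321) and -2.25 (SE 0.82, edgeR adjusted p 0.0435) in log2 units. Both differences passed the threshold narrowly. Of 19 alternatives, 11 and 12 ended those calls, among them scaling by total counts and most of the fits without 1 library (adjusted p up to 0.0908 and 0.114). Fibroblast and endothelial markers (6 genes, mostly Col1a1 and Col1a2) also separated these M0 groups, at 180 to 309 CPM in KO against 30.7 to 51.6 CPM in WT vehicle libraries. They separated the genotypes in M1 vehicle libraries too (108 to 151 against 20.6 to 47.2 CPM). The same held in M2 vehicle libraries (65.5 to 105 against 45.1 to 54.0 CPM), and the part of these markers was not tested. In bulk RNA, fewer cells with a transcript and less of it per cell cannot be told apart.

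After AP-3-84, KO M0 libraries held 44.2, 8.63 and 120 CPM of F13a1, all under the lowest vehicle library (252 CPM). The fall was 5.11-fold (log2 -2.35, SE 0.51, edgeR adjusted p 0.00185). It stayed called without any 1 library and was lost only in a fit of the compared groups alone (adjusted p 0.15). WT M0 cells went from 73.6, 91.0 and 87.9 to 111, 132 and 101 CPM, which do not overlap, and that difference was not called (log2 0.44, edgeR adjusted p 0.804). The genotypes' responses differed by -2.79 on the log2 scale (SE 0.70, edgeR adjusted p 0.00803; 0.0741 with the compared groups alone). In these treated KO libraries macrophage markers were lowest where F13a1 was lowest, in the second library. They were highest (38730 CPM) in the first, where F13a1 was 44.2 CPM, and lay between these in the third, which held the most F13a1. The part of these markers was not tested. In WT M2 cells F13a1 stood at 21.9, 13.7 and 15.3 CPM after AP-3-84, all above the vehicle libraries (log2 0.96, edgeR adjusted p 0.594), and in KO M2 cells at 2.55, 1.36 and 2.75 CPM (log2 -1.51, edgeR adjusted p 0.455). In M1 cells the treated libraries held 32.7, 32.0 and 28.1 CPM in WT and 16.2, 20.9 and 20.1 CPM in KO.

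The fall that led to the choice of F13a1 was from 36.7, 37.8 and 38.4 CPM in thio vehicle libraries to 19.6, 16.9 and 19.0 CPM with AP-3-84, a log2 change of -1.02. Ascites macrophages, which the choice did not use, went from 43.9, 38.1 and 42.0 to 34.0, 33.9 and 36.6 CPM. The ascites groups did not overlap, but the change was not called (log2 -0.25, SE 0.09, edgeR adjusted p 0.269). Of the 12 bone marrow group means, KO M0 vehicle came first (294 CPM) and KO M2 with AP-3-84 last (2.22 CPM), and 7 of the 11 neighbouring pairs overlapped.

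**Figure D3:**
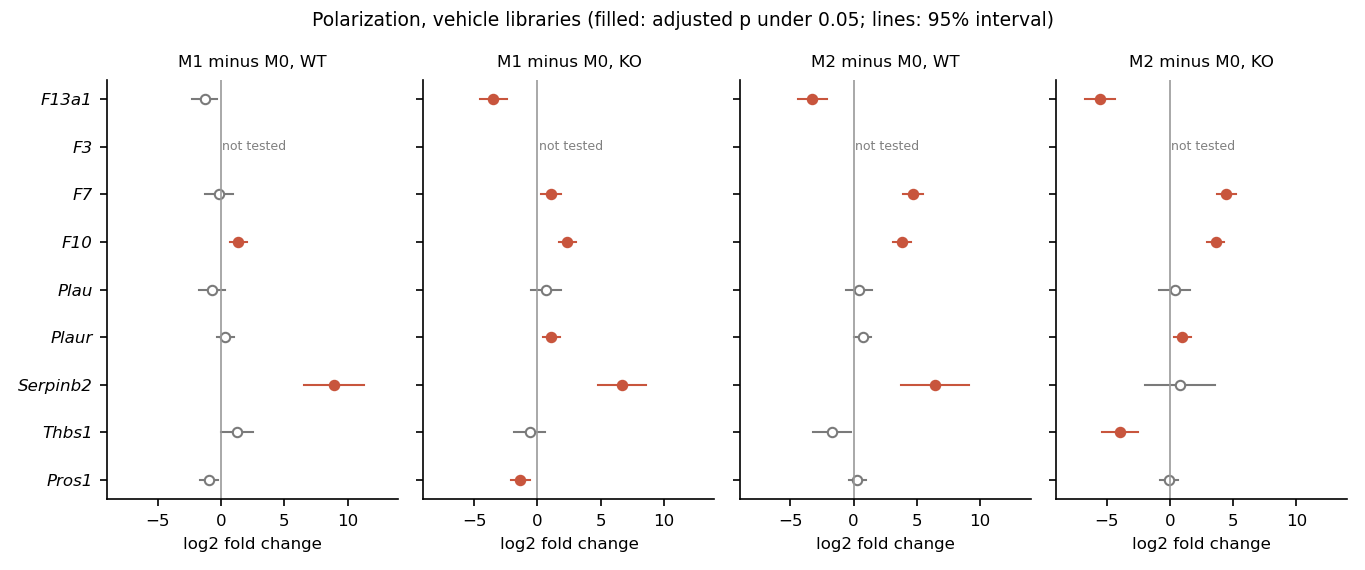
Log2 fold change of each gene against M0 in vehicle libraries (points; lines are 95% intervals; filled points have an edgeR adjusted p under 0.05), for WT and KO cells. F7 and F10 lie right of 0 and F13a1 left of 0 in both M2 panels, and Serpinb2 lies far right in both M1 panels.

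Pros1 (ENSMUSG00000022912), the anticoagulant protein S and a ligand of the receptors Tyro3 and Mertk, varied less. KO M1 libraries held 4.94, 17.7 and 10.5 CPM, all under the KO M0 libraries (32.5, 27.1 and 24.3 CPM), and the fall was called (log2 -1.33, SE 0.38, edgeR adjusted p 0.00562). WT M1 libraries (15.5, 17.2 and 20.4 CPM) also lay under WT M0 libraries (38.6, 32.5 and 33.7 CPM), without a call (log2 -0.98, edgeR adjusted p 0.0672). The same 4 alternatives that called F13a1 in this comparison called Pros1 lower. In the peritoneum Pros1 stood at 56.4, 59.7 and 58.8 CPM in ascites and at 123, 123 and 118 CPM in thio vehicle libraries, a 2.08-fold difference (log2 -1.06, SE 0.07, edgeR adjusted p 8.28e-10). The edgeR test with AP-3-84 called Pros1 in 0 of 8 populations, with an unadjusted p under 0.05 in 1 (ascites) and 0 calls by DESeq2, and log2 changes from -0.23 in KO M0 to 0.63 in KO M2 cells. Without the first KO M2 vehicle library the KO M2 rise was called (log2 1.33, edgeR adjusted p 0.0262).

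Of the fibrinolytic genes, Serpinb2 (ENSMUSG00000062345), which encodes plasminogen activator inhibitor 2, marked M1 cells. WT M1 vehicle libraries held 80.5, 129 and 69.5 CPM and KO M1 vehicle libraries 79.7, 180 and 75.4 CPM. WT M0 libraries held 0, 0 and 0.511 CPM and KO M0 libraries 0, 2.77 and 0.541 CPM. Pooled over libraries this was 1031 counts against 2 in WT, a depth-scaled ratio of 583 with a 95% counting interval of 161 to 4820. In KO it was 1339 counts against 11, a ratio of 109 with an interval of 60.5 to 218. Counting intervals leave out the spread between libraries; the edgeR adjusted p was 1.74e-05 and 6.18e-06, and both calls held in every alternative tried. Serpinb10, on the same strand, overlaps Serpinb2 in the annotation and had 168 counts over all libraries against 5021; reads in the shared stretch cannot be told apart.

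In M2 cells Serpinb2 rested on 1 library. WT M2 vehicle libraries held 45.6, 1.81 and 0.633 CPM, and the high one is the library rich in neutrophil and platelet markers. The M2 difference from M0 was called (log2 6.41, SE 1.38, edgeR adjusted p 0.00135), and without that library it was 2.71 and not called (adjusted p 0.183). AP-3-84 libraries of WT M2 cells held 0.926, 0.268 and 0 CPM, and their fall from vehicle was called with all libraries (log2 -5.31, SE 1.26, edgeR adjusted p 0.0319). Without the first vehicle library that change was -1.63 on the log2 scale (adjusted p 0.667), and leaving out any treated library also ended the call. KO M2 vehicle libraries held 1.33, 1.80 and 2.23 CPM, a log2 difference of 0.78 from KO M0 (edgeR adjusted p 0.699). In the peritoneum Serpinb2 stood at 4.43, 2.86 and 1.90 CPM in ascites and at 0.511, 1.03 and 0.217 CPM in thio vehicle libraries, without overlap (log2 2.38, SE 0.51, edgeR adjusted p 0.00134).

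Plau (ENSMUSG00000021822), the urokinase gene, was lower in KO M0 cells by the test, but 1 library carried that difference. WT M0 vehicle libraries held 32.8, 5.97 and 4.86 CPM and KO M0 libraries 4.45, 4.00 and 4.60 CPM (log2 -1.74, SE 0.58, edgeR adjusted p 0.0207). Without the first WT library the log2 difference was -0.32 (adjusted p 0.704), and without any of the KO libraries the adjusted p was 0.0514 to 0.0612. In M2 cells WT libraries held 28.4, 17.5 and 13.3 CPM and KO libraries 6.90, 4.73 and 5.46 CPM, which do not overlap, and this was not called (log2 -1.80, SE 0.55, edgeR adjusted p 0.0639). In the peritoneum Plau was higher in ascites (32.5, 41.4 and 35.4 CPM) than in thio vehicle libraries (20.7, 19.7 and 18.6 CPM), 1.86-fold (log2 0.89, SE 0.13, edgeR adjusted p 2.92e-05; 0.112 with all 48 libraries in 1 fit). AP-3-84 moved Plau past the threshold in 0 of 8 populations by edgeR and 0 by DESeq2, with unadjusted p under 0.05 in ascites, WT M0 and WT M2. In ascites the treated libraries (25.7, 30.2 and 27.9 CPM) lay under every vehicle library (log2 -0.38, edgeR adjusted p 0.201).

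Plaur (ENSMUSG00000046223), the urokinase receptor, rose in thio macrophages with AP-3-84. The libraries went from 36.1, 42.4 and 40.1 to 56.2, 49.8 and 51.5 CPM without overlap, a 1.33-fold rise (log2 0.41, SE 0.09, edgeR adjusted p 0.0098). With the replicate number as a block the adjusted p was 0.0699, and without the first vehicle library the change was 0.34 with an adjusted p of 0.0689. The call was also lost with all 48 libraries in 1 fit. Ascites libraries went from 40.0, 37.4 and 39.2 to 43.4, 43.1 and 40.2 CPM (log2 0.12, edgeR adjusted p 0.693), and the difference between these responses was not called (log2 -0.29, 95% interval -0.53 to -0.05, edgeR adjusted p 0.594). In KO cells Plaur was higher in M1 (53.3, 24.3 and 37.7 CPM) than in M0 (15.7, 17.9 and 19.7 CPM), 2.16-fold (log2 1.11, SE 0.35, edgeR adjusted p 0.0112; 0.0847 without the first M1 library). It was also higher in KO M2 cells (44.6, 31.5 and 29.8 CPM; log2 0.99, SE 0.35, edgeR adjusted p 0.0271), a call that ended without any 1 of the KO M0 libraries or the first M2 library (adjusted p 0.0522 to 0.110). In WT cells the 3 states overlapped, and M2 against M0 was not called (log2 0.72, edgeR adjusted p 0.118) but was under 2 alternatives. KO M0 libraries lay under every WT M0 library (21.5 to 48.5 CPM). That genotype difference was not called (log2 -0.85, edgeR adjusted p 0.0615) but was under 4 alternatives.

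Thbs1 (ENSMUSG00000040152), the matrix glycoprotein thrombospondin 1, was high in KO M0 cells and low in M2 cells. KO vehicle libraries held 228, 190 and 183 CPM in M0, 110, 192 and 95.7 CPM in M1 and 6.90, 8.11 and 23.1 CPM in M2. WT vehicle libraries held 8.75, 30.3 and 46.5 CPM in M0, 66.2, 87.2 and 50.4 CPM in M1 and 15, 6.63 and 4.12 CPM in M2. KO M0 cells held 7.04 times the WT level (log2 2.82, SE 0.67, edgeR adjusted p 0.00248). The fibroblast and endothelial markers given for F13a1 separate the same M0 groups (180 to 309 against 30.7 to 51.6 CPM), as they do the M1 and M2 groups. Their part was not tested. From M0 to M2 Thbs1 fell 15.7-fold in KO (log2 -3.98, SE 0.72, edgeR adjusted p 0.000132), while the WT groups overlapped (log2 -1.70, SE 0.75, edgeR adjusted p 0.105). That the fall was larger in KO was not called (log2 difference -2.27, edgeR adjusted p 0.102).

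AP-3-84 had opposite signs for Thbs1 in the M0 cells of the genotypes. WT M0 libraries went to 128, 77.6 and 38.4 CPM (log2 1.51, edgeR adjusted p 0.479) and KO M0 libraries to 48, 14.1 and 206 CPM (log2 -1.16, edgeR adjusted p 0.195), and neither change was called. Without the third treated library the KO fall was called (log2 -2.69, adjusted p 0.00229), as it was without a filter on low counts (log2 -1.14). The difference between them was called (log2 -2.68, SE 0.91, edgeR adjusted p 0.0437), but 11 of 19 alternatives ended that call (adjusted p up to 0.200). The third treated KO library, at 206 CPM, lay within the vehicle range. In the peritoneum Thbs1 was lower in ascites (72.7, 84.3 and 87.7 CPM) than in thio vehicle libraries (145, 138 and 138 CPM), 1.72-fold (log2 -0.78, SE 0.09, edgeR adjusted p 2.73e-06). That call was lost with all 48 libraries in 1 fit (edgeR adjusted p 0.301). Ascites libraries with AP-3-84 held 115, 92.8 and 89.2 CPM, above every vehicle library and not called (log2 0.28, edgeR adjusted p 0.195).

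**Figure D4:**
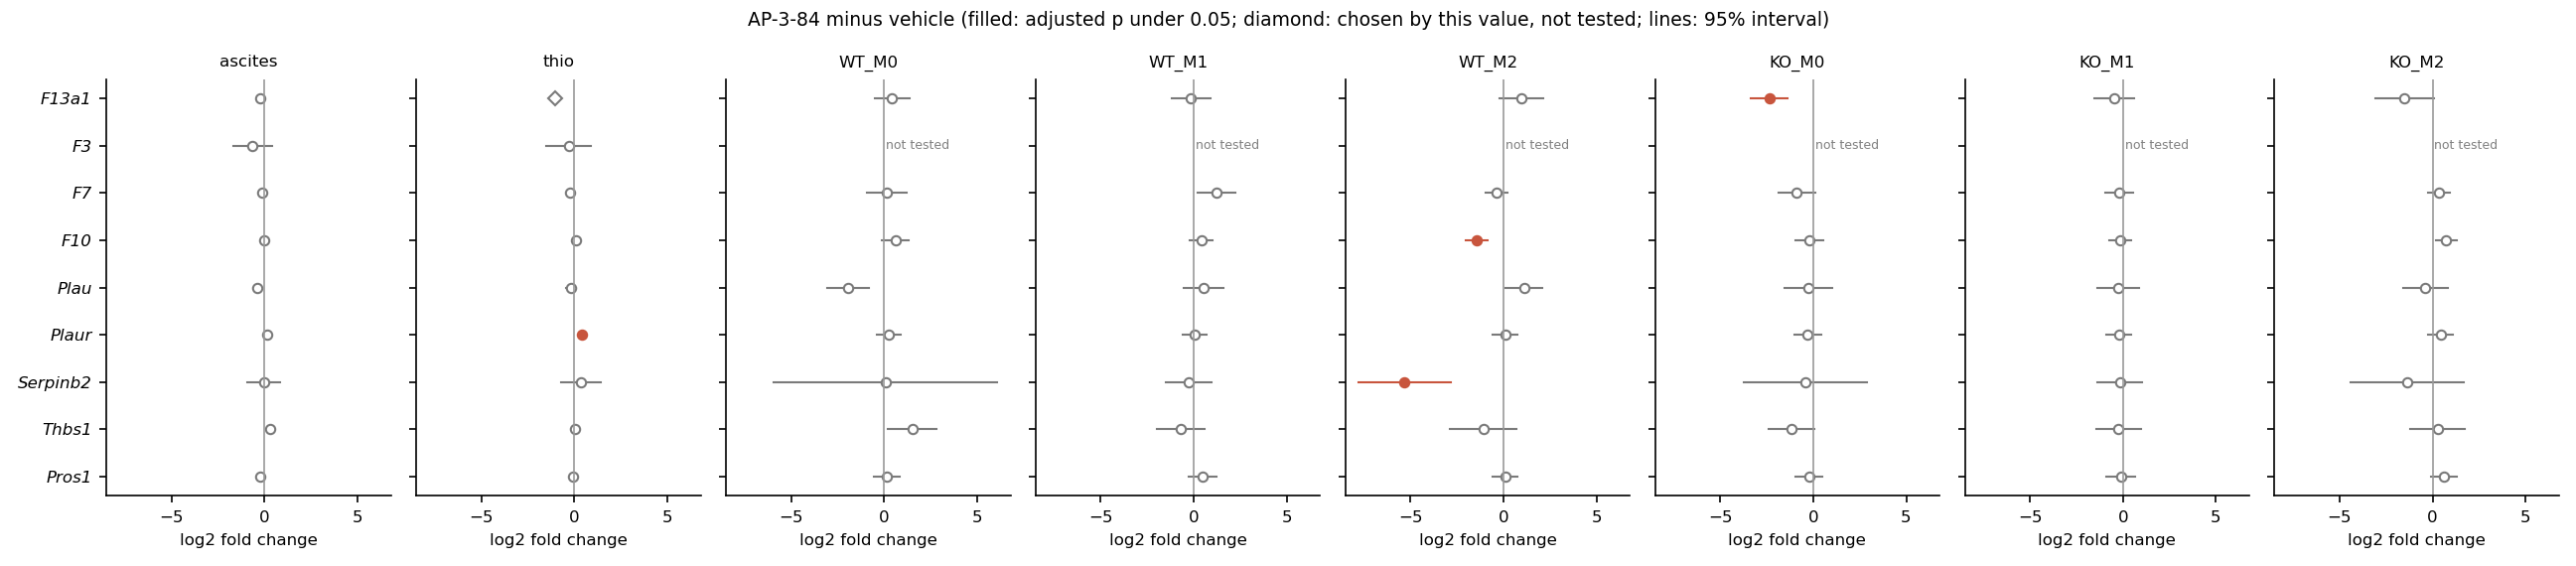
Log2 fold change of each gene with AP-3-84 against vehicle in the 8 populations (points; lines are 95% intervals; filled points have an edgeR adjusted p under 0.05; the diamond is the F13a1 value that led to its choice and is not tested). Filled points are Plaur in thio, F10 and Serpinb2 in WT M2 and F13a1 in KO M0 cells.

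The other genes of the pathways were taken from 6 lists of 59 genes, of which 28 could be tested in bone marrow and 35 in peritoneal libraries. In M2 cells 7 were higher and 2 lower than in M0 in WT (median log2 0.56, against 0.01 over all genes tested), beside 23.4% of all genes called. In KO 11 were higher and 9 lower (0.55 against 0.02), beside 38% of all genes. Among clotting factors, Vwf, the carrier of factor VIII that endothelium and platelets store, rose from 5.09 ± 0.45 to 107 ± 47.2 CPM in WT (SD, n = 3; edgeR adjusted p 1.21e-05), and in KO M2 from 12.2 ± 1.80 to 66.7 ± 56.4 CPM (edgeR adjusted p 0.00157). Vkorc1, which recycles the vitamin K on which factors VII, X and protein S depend, also rose (log2 1.08 in WT and 1.22 in KO, edgeR adjusted p 4.86e-07 and 4.63e-08). F5, the cofactor of factor X, was called higher in both but stayed low, at 1.74 ± 1.43 and 8.71 ± 5.68 CPM. Thbd, the thrombin receptor that turns on protein C, fell in both (log2 -1.64 and -2.08, edgeR adjusted p 0.00892 and 0.000363). Cd36, a receptor of thrombospondin 1, rose in both (log2 1.19 and 1.5, edgeR adjusted p 0.000694 and 2.52e-05).

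In M1 cells 0 of the 28 were higher and 3 lower in WT (median log2 -0.01 against 0), beside 15.5% of all genes, and 7 were higher and 6 lower in KO (0.24 against -0.01), beside 44.5%. Neither count is read as particular to these genes. Lrp1, a receptor that takes up protease and inhibitor complexes, was called lower in all 4 polarization comparisons (log2 -0.57 and -1.14 in WT M1 and M2, -1.32 and -1.34 in KO M1 and M2). Of the listed receptors, Axl was 3.06 and Mertk 2.18 higher on the log2 scale in KO M0 cells than in WT (edgeR adjusted p 4.81e-06 and 0.000174). Gas6, a ligand of these receptors, was 1.60 higher on that scale (edgeR adjusted p 0.0308). All 3 genes were lower in KO M1 and M2 than in KO M0 cells. Between genotypes 7 of the 28 were higher and 4 lower in KO M0 cells (33.2% of all genes), 4 and 1 in M1 (11.6%), and 0 and 1 in M2 (3.56%).

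With AP-3-84, 1 of the 35 listed genes was called higher and 0 lower in ascites, beside 1.79% of all genes (median log2 0.10, against -0.0048 over all genes). In thio 4 were called higher and 2 lower, beside 4.32% of all genes (median log2 0.09 against 0.025). The protein C receptor Procr was called in both, rising from 68.8 ± 5.45 to 124 ± 6.04 CPM in ascites (log2 0.85, edgeR adjusted p 3.57e-06), and in thio from 47.1 ± 0.744 to 111 ± 7.18 CPM (log2 1.23, edgeR adjusted p 2.95e-08; SD, n = 3). In thio Axl and Mertk fell (log2 -0.70 and -0.30, edgeR adjusted p 8.5e-05 and 0.0134), and Tyro3, which like Mertk is a receptor of protein S, rose at a low level (5 counts over the vehicle and 34 over the treated libraries, 0.102 ± 0.0775 to 0.749 ± 0.268 CPM, edgeR adjusted p 0.0110). Tyro3 was singled out after its values were seen. In the same cells the transglutaminase Tgm2 rose (log2 0.31, edgeR adjusted p 0.0174). In KO M0 cells 1 of 28 rose (Lman1, which ferries factors V and VIII) and 5 fell, beside 20.7% of all genes; among those that fell were Axl and Mertk (log2 -1.12 and -1.88, edgeR adjusted p 0.038 and 0.00127). Between ascites and thio vehicle macrophages 11 of 35 were higher and 12 lower, beside 33.7% of all genes, with Axl at 503 ± 31.6 against 33.1 ± 0.115 CPM and Thbd at 8.5 ± 1.02 against 34.9 ± 1.84 CPM (edgeR adjusted p 1.31e-15 and 4.66e-10). The liver genes F2, Fga, Fgb and Fgg were not testable in any library.

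The genes whose group means ran most like each member were ranked by Pearson's r of log2 levels over the 16 groups, among 7722 genes, as a description. For F7 they were Bhlhe40 (r 0.97), Dlg3 (0.97) and Mmp12 (0.96), with 0.98, 0.94 and 0.98 over the 12 bone marrow groups. For F10 they were Slamf8 (r 0.96), Dcbld2 (0.93) and Fuom (0.92), with 0.98, 0.94 and 0.93 over the 12 bone marrow groups. In the case of F13a1 they were Abcc3 (r 0.91), Cttnbp2nl (0.90) and Inpp5d (0.89), with 0.92, 0.90 and 0.89 over the 12 bone marrow groups. For Pros1 they were Itpripl2 (r 0.95), Sort1 (0.95) and Zbtb44 (0.95), with 0.89, 0.88 and 0.89 over the 12 bone marrow groups. For the inhibitor gene Serpinb2 they were Dnajc1 (r 0.94), Ccl5 (0.94) and Cd38 (0.93), with 0.95, 0.98 and 0.98 over the 12 bone marrow groups. For Plau they were Tmem184b (r 0.85), Gpx1 (0.85) and Xdh (0.85), with 0.75, 0.76 and 0.77 over the 12 bone marrow groups. For the receptor gene Plaur they were Ostm1 (r 0.87), Esd (0.86) and Cstb (0.85), with 0.88, 0.90 and 0.87 over the 12 bone marrow groups. For Thbs1 they were Retreg1 (r 0.93), Sorl1 (0.90) and Rabgap1l (0.87), with 0.93, 0.89 and 0.90 over the 12 bone marrow groups. The r values have no test, and nothing about shared function follows from them.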

How the data were processed

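RNA of F4/80+ peritoneal and bone marrow-derived mouse macrophages was read by QuantSeq FWD 3′ sequencing (100 ng RNA, single reads of 75 bases), per the labels' protocols. The authors deposited 1 table of raw counts per gene and library, whole numbers by Ensembl gene ID. The submitters' processing notes name Bowtie2, RSEM and DESeq2 with no role or version. For build, strand setting and molecular identifiers, nothing is given in the sources used here. Without strand, counts of overlapping antisense genes cannot be told apart (F13a1 and Thbs1 have such partners in GENCODE M21).

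Here counts were tested with edgeR 4.0.16 (limma 3.58.1, R 4.3.3): filterByExpr by group, TMM scaling, robust quasi-likelihood fit, 1 mean per group, two-sided, Benjamini-Hochberg over all genes of a comparison, called under 0.05. Peritoneal (16955 genes) and bone marrow libraries (11779 genes) were fitted apart, so levels are compared only within each. The r values over 16 groups are an exception and span both fits. CPM here are counts scaled to library size with TMM. SE and 95% intervals follow from the fold change and its F statistic. The procedure was tested on simulated data. Intervals of pooled counts are exact, cover counting error only, since PCR copies of a molecule may be counted more than once.

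Symbols were found for 51596 of 51789 gene IDs. All 9 genes are named in every comparison, and of the pathway genes those called in at least 2 comparisons of a kind or with the lowest adjusted p of their list in a comparison; 1 gene that this rule names is not reported here. These 9 genes and the lists were chosen with earlier results of these data known. Likeness is the Pearson r of group means of the log2 of CPM plus 1 over 16 groups, among 7722 genes with an average log2 CPM of at least 3 in both fits. The r of F7 with F10 was taken from the same means. Alternatives were no filter, other scalings, DESeq2 1.42.0, other sample sets, a block for the replicate number, and omission of single libraries. Replicate numbers gave deviations correlated over 0.1 in every pair in 1 of 12 pairings (WT M0 with WT M2 vehicle); the numbers come from the titles. No pair of libraries agreed within counting noise (lowest chi-square per gene 2.57).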

Additional observations from a re-analysis of the deposited data

Results flagged for a closer look

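For 5 results the response itself differed between p53 genotypes by the edgeR test of that difference (KO minus WT, log2 scale, Benjamini-Hochberg adjusted). The response of F13a1 to AP-3-84 in M0 cells differed by -2.79 (adjusted p 0.00803); it fell in KO cells (log2 -2.35) and was not called in WT cells (log2 0.44). For Thbs1 in M0 cells the difference was -2.68 (adjusted p 0.0437), with log2 values of -1.16 in KO and 1.51 in WT cells, neither of them called. For F10 in M2 cells it was 2.18 (adjusted p 0.00547); F10 fell in WT cells (log2 -1.46) and was not called in KO cells (log2 0.73). The change of F13a1 from M0 to M1 differed by -2.18 (adjusted p 0.0321) and that from M0 to M2 by -2.25 (adjusted p 0.0435). Both share the M0 vehicle libraries, in which F13a1 was 294 ± 36.9 CPM in KO and 84.2 ± 9.31 CPM in WT cells (SD, n = 3).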

How the results depend on the processing

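Of 37 calls of single genes, 19 were the same under every alternative and 18 were lost under at least 1; 33 results that were not called were called under at least 1 alternative. The number of genes called moved by over 1.5 times as follows, and the cause was not tested. Without a filter on low counts it was 2 in place of 0 for AP-3-84 in WT M0 and in KO M2, 5 in place of 2 in WT M2, 2 in place of 1 in KO M0, 5 in place of 2 for WT M1 against M0, 5 in place of 3 for KO against WT in M0 and 2 in place of 0 in M2. With all 48 libraries in 1 fit it was 0 for AP-3-84 in thio, 4 for WT M1 against M0, 2 for KO against WT in M2 and 3 for ascites against thio. With only the compared groups it was 2 for AP-3-84 in thio, 1 in WT M2 and 0 in KO M0. Scaling by total counts gave 4 for WT M1 against M0, and DESeq2 gave 2 for KO against WT in M2. For differences between genotypes (KO minus WT), the count for the M1 response was 4 without the filter and 0 with total counts, in place of 1 (F13a1). For the M2 response it was 3 without the filter, 2 by DESeq2 and 0 with total counts, in place of 1 (F13a1). For AP-3-84 it was 4 in place of 1 in M2 without the filter, and in M0, in place of 2, 0 with only the compared groups and 1 with the replicate block.

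With the replicate number as a block, the number called for AP-3-84 was 0 in thio, where Plaur lost its call (adjusted p 0.0699), and 1 in WT M2, where Serpinb2 did (0.0731). The block also ended the calls of F3 between ascites and thio (0.0565) and of the Thbs1 difference between genotypes in M0 (0.0578), and changed no other. The pairing rule held only for WT M0 with WT M2 vehicle libraries, where the block changed no call.

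Leaving out single libraries gave 0 to 2 calls for AP-3-84 in WT M2 (0 without the first or the second AP-3-84 library, 1 without the third one or without the first vehicle library). In thio it gave 0 to 1 (0 without the first vehicle library), in KO M0 1 to 2 (2 without the third AP-3-84 library) and in KO M2 0 to 2 (2 without the first vehicle library). For KO against WT it gave 1 to 2 in M1 (1 without the third KO or the first or the third WT library) and 0 to 1 in M2 (1 without the first KO or the second or the third WT library). For the genotype difference in AP-3-84 response in M0 it gave 1 to 2, with 2 only without the third WT vehicle, WT AP-3-84 or KO AP-3-84 library. For that in the M1 response it gave 0 to 1, with 1 only without the first WT M0 (F10), the third KO M0 or the second KO M1 library (F13a1 each time). For the M2 response it gave 0 to 1, with 1 only without the second or the third WT M2 (Serpinb2 each time) or the third KO M2 library (F13a1). F13a1 thus lost its call in the other single-library fits. Without the first WT M0 vehicle library, the difference of the Plau M1 response between genotypes turned from 1.41 to -0.0149 (up to 1.82 without other single libraries). Without the first WT M2 vehicle library, Serpinb2 in KO against WT M2 turned from -3.16 to 0.52 (down to -3.72 without others). Neither was called.

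Scaling by total counts moved the median of all genes by -0.30 for WT M1 and -0.21 for WT M2 against M0, by 0.27 and 0.18 for KO against WT in M1 and M2, by 0.11 for AP-3-84 in WT M2, and by 0.25, 0.16 and -0.16 for the genotype differences in M1, M2 and, with AP-3-84, M2. Depth limits F3 in bone marrow, where 3 counts over all libraries correspond to 0.022 CPM.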
